A study of Mus musculus with 8 samples.

Results

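The genes described here are 42 mouse genes of the cell cycle and of DNA replication, followed in RAW 264.7 cells, a macrophage-like line from BALB/c mice, that had been exposed to probiotic bacteria. They were chosen by name, as the probes that are not controls and whose transcript accession belongs to a listed gene. A probe was found for 40 of the 42, and all 40 passed the filter on dim probes, among 15203 genes that passed it in all. Rrm2 and Ccnd1 were not analysed here. The 40 fall into 14 genes of DNA replication, 4 regulators of the step from G1 to S phase, 20 genes of mitosis and 2 mitotic transcription factors. The values played no part in the choice, but the list was drawn up with earlier results of these data known.

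Cells received Lactobacillus acidophilus, Bacillus clausii or Bifidobacterium bifidum at a multiplicity of infection of 1 for 6 hours, and time-matched cells without bacteria were the controls. Each two-colour Agilent array carried RNA of treated cells in Cy5 and RNA of untreated cells in Cy3, with dyes never swapped, and the ratio of Cy5 over Cy3 is the treated over the untreated level. L. acidophilus had 2 arrays, B. clausii had 3 and B. bifidum had 3. The arrays sat on 2 slides: both L. acidophilus arrays and replicate 3 of each other strain were on slide 1, and the remaining replicates, 1 and 2 of B. clausii and B. bifidum, on slide 2. Nothing ties an array to a culture of its own, so the spread behind every p-value is that between arrays and may be technical.

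A cell copies its DNA once per cycle. Before S phase, Cdc6 and Cdt1 load the Mcm2 to Mcm7 helicase ring onto origins, and Cdc45 and the GINS complex then switch the ring on, while Pcna clamps the polymerases to the template. Many of these genes are switched on by E2F factors at the end of G1, and many mitotic genes are switched on later through the Mybl2 and Foxm1 complexes, which act at short promoter elements called CHR. Cdkn1a, also known as p21, holds cyclin-dependent kinases back. RAW 264.7 is an established line that divides in culture, and in macrophages microbial products are known to slow the cycle.

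The promoters of the members hold both kinds of element. RefSeq promoters of assembly GRCm38.p6, running from 250 bases before to 50 after a gene's start, were found for 12 of the 14 replication genes, 3 of the 4 G1/S regulators, 16 of the 20 mitosis genes and 1 of the 2 mitotic transcription factors. An E2F-type word (TTTCCCGC, TTTGGCGC, TTTCGCGC or TTTGCCGC, on either strand) was present in 6 of 12 replication genes and 1 of 16 mitosis genes, against 2.26% of 32851 promoters. The CHR word TTTGAA, on either strand, was present in 2 of 12 replication genes and 11 of 16 mitosis genes, against 17.9% of all promoters. A member counted where any of its listed promoters held the word, while the shares of all promoters count each promoter singly. A match of letters is a description, not a binding site. The 6 promoters below are shown because the genes behind them hold the same words and did not all move one way with B. clausii on slide 2, with the matches to the E2F-type and CHR words in capitals and the rest in lower case, 5′ to 3′ on the strand of the gene. Mcm6 lies at chr1:128359656-128359955 on the minus strand, Cdc6 at chr11:98907901-98908200 on the plus strand, Cdt1 at chr8:122567765-122568064 on the plus strand, Cdk1 at chr10:69352863-69353162 on the minus strand, Bub1b at chr2:118597961-118598260 on the plus strand and Plk1 at chr7:122159185-122159484 on the plus strand. Mcm6, Cdc6 and Cdt1 hold E2F-type words, Bub1b and Plk1 hold CHR, and Cdk1 holds both.
Mcm6: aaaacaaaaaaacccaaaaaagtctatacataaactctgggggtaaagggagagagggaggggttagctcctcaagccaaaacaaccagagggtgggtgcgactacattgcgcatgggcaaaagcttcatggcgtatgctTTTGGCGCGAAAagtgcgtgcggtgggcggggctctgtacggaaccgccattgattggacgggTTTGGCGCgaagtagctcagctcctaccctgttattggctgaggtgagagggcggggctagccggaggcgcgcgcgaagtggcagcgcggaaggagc
Cdc6: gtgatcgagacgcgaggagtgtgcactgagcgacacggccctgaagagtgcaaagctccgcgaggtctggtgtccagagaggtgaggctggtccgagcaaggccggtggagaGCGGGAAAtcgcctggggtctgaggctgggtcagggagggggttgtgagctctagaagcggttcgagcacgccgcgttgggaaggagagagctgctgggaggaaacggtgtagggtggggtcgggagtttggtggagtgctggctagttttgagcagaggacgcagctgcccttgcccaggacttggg
Cdt1: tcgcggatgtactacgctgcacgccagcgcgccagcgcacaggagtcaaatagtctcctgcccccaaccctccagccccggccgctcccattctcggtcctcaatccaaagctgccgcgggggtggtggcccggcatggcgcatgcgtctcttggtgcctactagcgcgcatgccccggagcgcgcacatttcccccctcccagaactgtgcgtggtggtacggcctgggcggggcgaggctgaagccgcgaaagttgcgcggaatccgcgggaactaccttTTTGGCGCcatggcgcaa
Cdk1: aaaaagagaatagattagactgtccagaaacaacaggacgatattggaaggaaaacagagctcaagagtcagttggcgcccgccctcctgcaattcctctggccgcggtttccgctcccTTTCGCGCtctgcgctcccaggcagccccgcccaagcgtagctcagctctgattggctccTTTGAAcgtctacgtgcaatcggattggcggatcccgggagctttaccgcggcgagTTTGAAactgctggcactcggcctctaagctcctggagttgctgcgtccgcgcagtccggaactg
Bub1b: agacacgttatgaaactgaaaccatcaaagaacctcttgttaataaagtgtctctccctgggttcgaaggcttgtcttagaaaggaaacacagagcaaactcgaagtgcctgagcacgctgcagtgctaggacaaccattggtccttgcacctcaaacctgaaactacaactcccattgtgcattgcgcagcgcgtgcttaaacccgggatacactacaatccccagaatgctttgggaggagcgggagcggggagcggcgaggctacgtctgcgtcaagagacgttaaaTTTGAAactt
Plk1: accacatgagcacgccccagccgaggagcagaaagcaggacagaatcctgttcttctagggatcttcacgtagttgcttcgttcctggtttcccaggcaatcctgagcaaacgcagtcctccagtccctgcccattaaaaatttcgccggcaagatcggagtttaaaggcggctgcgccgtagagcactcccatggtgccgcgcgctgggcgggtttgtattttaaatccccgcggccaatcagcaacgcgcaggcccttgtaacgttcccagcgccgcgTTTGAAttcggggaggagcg

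Facts of the whole series limit what follows. In untreated cells, 8 of 8 measured macrophage markers, Adgre1, Csf1r and Spi1 among them, were well above background on at least 7 arrays, while 0 of 5 fibroblast markers and 0 of 1 epithelial marker were. Of the 40 members, 37 were well above background on all 8 arrays and none was saturated. B. clausii replicate 3 stood apart: 53.9% of genes were well above background on it, against 79.5% to 93.4% on the other arrays, and its repeated spots varied by 72.5% in Cy5 and 67.4% in Cy3. E2f1, Top2a and Kif11 were the 3 members not well above background there. The members are bright genes: the median member was brighter than 86.1% of the genes tested, and bright genes were called more often than others in the tests of B. clausii and of B. bifidum against untreated cells. Shares of genes of like brightness, those within the members' interquartile range (3620 genes over all arrays), are therefore given beside most counts of called members. In bulk RNA, fewer cells in a phase and less RNA per cell cannot be told apart.

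With L. acidophilus no member passed. Limma, with Benjamini-Hochberg adjustment over all genes and a threshold of 0.05, called 0 of the 40 members and 0% of all genes. By limma 0 members reached an unadjusted p under 0.05, against 1103 of the 15203 genes. The members' median log2 ratio was 0.01, and the median of all genes was also 0.01. Mcm4, a helicase subunit, was the replication gene with the highest mean, at 0.40 and 0.24 on the 2 arrays (mean 0.32 ± 0.17 SE, adjusted p = 0.737). Pcna had log2 ratios of 0.29 and 0.26, and Cdkn1a had −0.17 and −0.20. Among the mitosis genes Birc5, which encodes survivin, had the highest mean at 0.17, and Ube2c, a ubiquitin-conjugating enzyme of the anaphase-promoting complex, had −0.25 on its only usable array. The 2 arrays had the same sign for 32 of the 39 members measured on both, against 73.3% of all genes. Since both arrays lie on slide 1, values with the slide as a block borrow from the other strains. Pcna and Kif20a then passed, at 0.63 and −0.42, although the ratios measured for Kif20a were only −0.15 and −0.03. The share of all genes called with that block is not given here, so no effect of L. acidophilus is read from it.

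**Figure D1:**
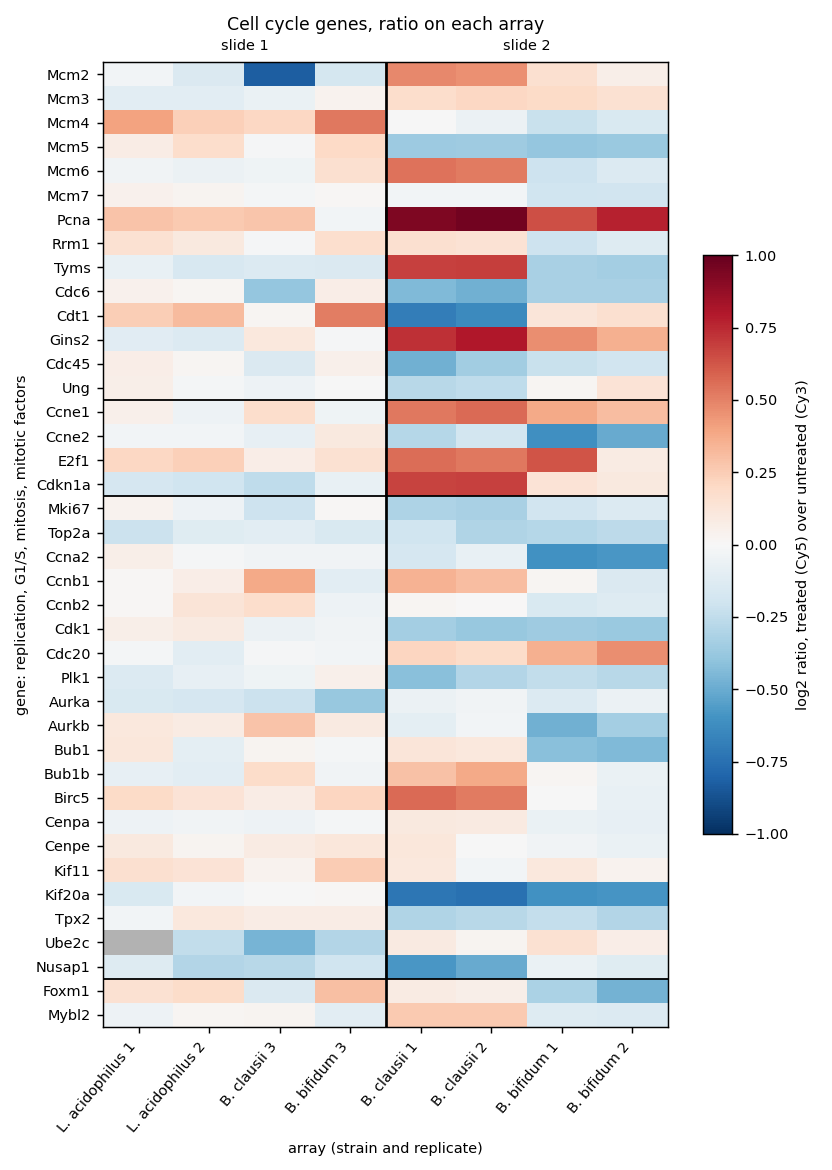
Log2 ratio of treated (Cy5) over untreated cells (Cy3) for the 40 measured members (down) on each of the 8 arrays (across), slide 1 left of the line and slide 2 right of it; red is above 0, blue below, and grey is the missing value of Ube2c. On slide 2 Pcna reaches 0.94 and 0.96 with B. clausii and Kif20a −0.73 and −0.75, while on slide 1 most members lie near 0 with every strain.

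Over all 3 arrays of B. clausii, 5 of the 40 members passed, or 12.5%, against 4.77% of all genes and 8.84% of genes of like brightness. Pcna, Ccnb1 and Bub1b rose, where 2.17% of all genes did, and Nusap1 and Cdc6 fell, where 2.6% did. Pcna had log2 ratios of 0.94, 0.96 and 0.28 in replicates 1 to 3, with a mean of 0.73 ± 0.17 (SE, adjusted p = 0.0488), a 1.65-fold rise. Its 2 arrays on slide 2 were both far above the array on slide 1, and all 3 were above 0. Nusap1, a spindle microtubule protein, had −0.58, −0.50 and −0.28 (mean −0.45 ± 0.08 SE, adjusted p = 0.0367). Cdc6 had −0.44, −0.48 and −0.39 (mean −0.44 ± 0.09 SE, adjusted p = 0.0400), values that lie closer together than those of Pcna. Its dimmer probe had −0.32, −0.32 and 0.09, so replicate 3 differed in sign between the probes. Ccnb1, the B-type cyclin that drives entry into mitosis, had 0.35, 0.31 and 0.38 (mean 0.34 ± 0.06 SE, adjusted p = 0.0388) on its brightest probe, and its dimmer probes disagreed with this one. Bub1b, a kinase-like protein of the spindle checkpoint, had 0.29, 0.38 and 0.18 (mean 0.29 ± 0.07 SE, adjusted p = 0.0478). On the probe used, the 3 arrays pointed the same way for these 5 genes. In all they did so for 24 of the 40 members and for 41.8% of all genes. The count rests on single arrays: without B. clausii replicate 3 it was 22, without B. bifidum replicate 3 it was 10, and without any other array it was 0. The share of all genes called is not given beside these counts, nor beside those with a block that follow. They are therefore not read as results about the members. A block for the replicate number gave 18, a block for the slide gave 17, and the slide 1 array of the strain alone gave 0, with 11 members at an unadjusted p under 0.05 by limma.

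Over all 3 arrays of B. bifidum, limma called 0 of 40 members, against 1.72% of all genes and 3.34% of genes of like brightness. By limma 10 members had an unadjusted p under 0.05, as had 2878 of the 15203 genes. The members' median log2 ratio was −0.09. Pcna had 0.65, 0.77 and −0.02 in replicates 1 to 3 (mean 0.46 ± 0.17 SE, adjusted p = 0.187). Ccna2, the cyclin of S phase and G2, had −0.60, −0.58 and −0.03 (mean −0.40 ± 0.11 SE, adjusted p = 0.0940). In both genes replicates 1 and 2, on slide 2, lay close together and replicate 3, on slide 1, was near 0. The 3 arrays had the same sign for 14 of the 40 members, against 40.3% of all genes. Without B. bifidum replicate 3 the count was 10, and without B. clausii replicate 3 it was 2. A block for the replicate number gave 11, and a block for the slide gave 7. No share of all genes is given beside these counts, so they show nothing particular to the members.

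Values within slide 2 stand on 2 arrays per strain. There, 28 of the 40 members were called with B. clausii, 15 higher and 13 lower, which is 70% of them. On the same arrays 55.9% of all genes and 74.8% of genes of like brightness were called (25.7% of all genes higher and 30.3% lower), so the share of members is no larger than the share of comparably bright genes. The count was 18 with the scanner's processed signals, 14 with the deposited value table and 14 with median centring in place of loess. Their median log2 ratio was 0.05, and that of all genes was −0.01.

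Among the replication genes on slide 2, 7 rose and 5 fell with B. clausii, and 2 of the 14 did not pass. Pcna averaged 0.95 ± 0.05 (SE, adjusted p = 0.000163), a 1.93-fold rise. Gins2, a subunit of the GINS complex, had 0.73 and 0.80, against 0.11 in replicate 3 on slide 1 (slide 2 mean 0.76 ± 0.05 SE, adjusted p = 0.000263). Tyms, which makes the thymidine nucleotide for DNA synthesis, had 0.69 and 0.69, against −0.14 on slide 1 (slide 2 mean 0.69 ± 0.04 SE, adjusted p = 0.000218). Of the 15 called rises, these 3 alone stayed above 0 under all 4 other scalings tried, without allowing for the shift of all genes. Mcm6, a helicase subunit, had 0.54 and 0.52, against −0.05 on slide 1 (slide 2 mean 0.53 ± 0.04 SE, adjusted p = 0.000497).

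The helicase subunits did not move together. Beside Mcm6, Mcm2 rose by 0.47 and Mcm3 by 0.19 on the log2 scale, Mcm5 fell by 0.36, and Mcm4 and Mcm7 had −0.03 and −0.03 and did not pass. Both licensing factors fell. Cdt1 had −0.69 and −0.64 on slide 2, against 0.02 on slide 1 (slide 2 mean −0.67 ± 0.04 SE, adjusted p = 0.000266), which is 1.59-fold lower. Cdc6 averaged −0.46 ± 0.04 (SE, adjusted p = 0.000637) on slide 2. Cdc45, which joins the loaded helicase, averaged −0.41, and Ung, the uracil-DNA glycosylase, −0.27, both called. The last member of the group, Rrm1, the large subunit of ribonucleotide reductase, rose by 0.16.

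All 4 G1/S regulators passed with B. clausii on slide 2. Cdkn1a had 0.68 and 0.68, against −0.26 on slide 1 (slide 2 mean 0.68 ± 0.04 SE, adjusted p = 0.000231), a 1.60-fold rise. Its probe was printed 10 times on each array, and so was that of Pcna. Ccne1, cyclin E1, had 0.53 and 0.57, against 0.18 on slide 1 (slide 2 mean 0.55 ± 0.04 SE, adjusted p = 0.000460), and its relative Ccne2 had −0.29 and −0.18, against −0.08 on slide 1 (slide 2 mean −0.23 ± 0.05 SE, adjusted p = 0.0148). The cyclins E therefore had opposite signs on every array of the strain on slide 2. E2f1 averaged 0.54 ± 0.13 (SE, adjusted p = 0.0157) on its brighter probe, but its other probe, printed 10 times, had −0.26 and −0.32 on the same arrays, so that no direction is settled for this gene.

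Of the mitosis genes, 4 rose and 7 fell with B. clausii on slide 2, and 9 of the 20 did not pass. Birc5 had 0.56 and 0.52, against 0.07 on slide 1 (slide 2 mean 0.54 ± 0.04 SE, adjusted p = 0.000481). Bub1b rose by 0.34, Ccnb1 by 0.33 and Cdc20, an activator of the anaphase-promoting complex, by 0.20. Kif20a, a kinesin needed for cytokinesis, was the lowest of all members at −0.73 and −0.75, against −0.01 on slide 1 (slide 2 mean −0.74 ± 0.04 SE, adjusted p = 0.000192), which is 1.67-fold lower. Nusap1 averaged −0.54, the kinase gene Cdk1 −0.36, the polo kinase gene Plk1 −0.36, the proliferation marker Mki67 −0.32, the spindle assembly factor Tpx2 −0.29 and the topoisomerase gene Top2a −0.25, all called. Of the mitotic transcription factors, Mybl2 rose by 0.26, while Foxm1 had 0.08 and 0.06 and did not pass.

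**Figure D2:**
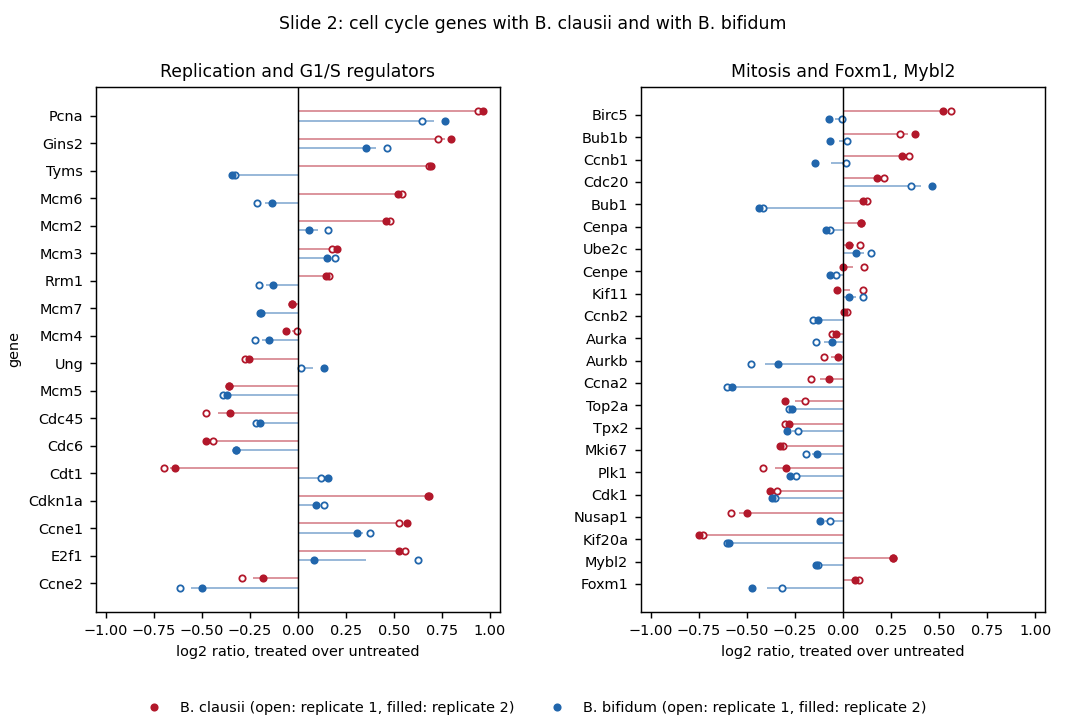
Log2 ratio of treated over untreated cells on the 4 arrays of slide 2 for each measured member, replication genes and G1/S regulators in the left panel and mitosis genes and mitotic factors in the right, B. clausii in red above B. bifidum in blue; open points are replicate 1, filled points replicate 2, and lines run from 0 to the mean. Tyms lies at 0.69 with B. clausii and −0.33 with B. bifidum and Cdt1 at −0.67 and 0.14, while Kif20a lies at −0.74 and −0.60.

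With B. bifidum on slide 2, 25 of the 40 members passed, 5 higher and 20 lower. That is 62.5% of them, against 38.7% of all genes and 63.5% of genes of like brightness. The count was 14 without B. bifidum replicate 1, 15 without B. bifidum replicate 2, 10 with processed signals and 5 with the deposited value table. The higher calls made up 5 of 40 members, against 15.1% of all genes and 22.2% of genes of like brightness. The lower calls made up 20 of 40, against 23.6% of all genes and 41.3% of genes of like brightness. The members' median log2 ratio was −0.14, against −0.08 for genes of like brightness and −0.01 for all genes.

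In the replication group 3 rose and 8 fell with B. bifidum. Pcna had 0.65 and 0.77 on slide 2, against −0.02 on slide 1 (slide 2 mean 0.71 ± 0.05 SE, adjusted p = 0.000657), a 1.63-fold rise, and Gins2 averaged 0.41 and Mcm3 0.17. The falls included 4 of the 6 helicase subunits. Mcm5 had −0.39 and −0.37, against 0.20 on slide 1 (slide 2 mean −0.38 ± 0.04 SE, adjusted p = 0.00182), and Mcm7, Mcm4 and Mcm6 averaged −0.19, −0.19 and −0.17. Tyms averaged −0.33, Cdc6 −0.32, Cdc45 −0.21 and Rrm1 −0.17. Cdt1 had 0.12 and 0.16 on slide 2 and 0.51 on slide 1, all above 0, and did not pass.

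Ccne1 rose and Ccne2 fell with B. bifidum too. Ccne1 averaged 0.34 and Ccne2 had −0.61 and −0.50, against 0.10 on slide 1 (slide 2 mean −0.56 ± 0.05 SE, adjusted p = 0.00127). Cdkn1a had 0.14 and 0.10 on slide 2 and −0.07 on slide 1 and did not pass (adjusted p = 0.0846). E2f1 had 0.63 and 0.08, the widest gap between the slide 2 arrays of this strain among the members, and did not pass.

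Of the mitosis genes, 1 rose and 10 fell with B. bifidum on slide 2. The rise was Cdc20, at 0.35 and 0.46, against −0.03 on slide 1 (slide 2 mean 0.41 ± 0.05 SE, adjusted p = 0.00232). Kif20a had −0.60 and −0.59, against 0.01 on slide 1 (slide 2 mean −0.60 ± 0.04 SE, adjusted p = 0.000655), and Ccna2 averaged −0.59 ± 0.05 (SE, adjusted p = 0.000791). Bub1, a kinase of the spindle checkpoint, had −0.42 and −0.44, against −0.02 on slide 1 (slide 2 mean −0.43 ± 0.04 SE, adjusted p = 0.00133), but its dimmer probe had 0.35 and 0.00 on slide 2. Cdk1 averaged −0.36 and Aurkb, the kinase of the chromosomal passenger complex, −0.41. Foxm1 fell by 0.39, and Mybl2, at −0.13 and −0.14, did not pass (adjusted p = 0.0526).

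These directions depend on how the colours were balanced. Without the brightness-dependent correction, that is with median centring in place of loess, the median of all genes on slide 2 lay at −0.30 with B. clausii and −0.42 with B. bifidum, the members' medians lay at −0.59 and −0.94, and 0 members were called higher in either. Pcna with B. bifidum then lay at −0.29, above that median. Relative to the median of all genes, 22 of the 28 called members of B. clausii and 22 of the 25 of B. bifidum had the same sign under each of 4 other scalings. Those that did not were Bub1b, Ccnb1, Cdc20, Mcm3, Mybl2 and Rrm1 with B. clausii, and Ccne1, Cdc20 and Mcm3 with B. bifidum, all of them called higher as reported. Every called fall in both strains had the same sign under all of these scalings. Median centring moved the members' medians down, also against the median of all genes. It could thus turn rises more readily than falls, so no conclusion is drawn that the falls are firmer.

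**Figure D3:**
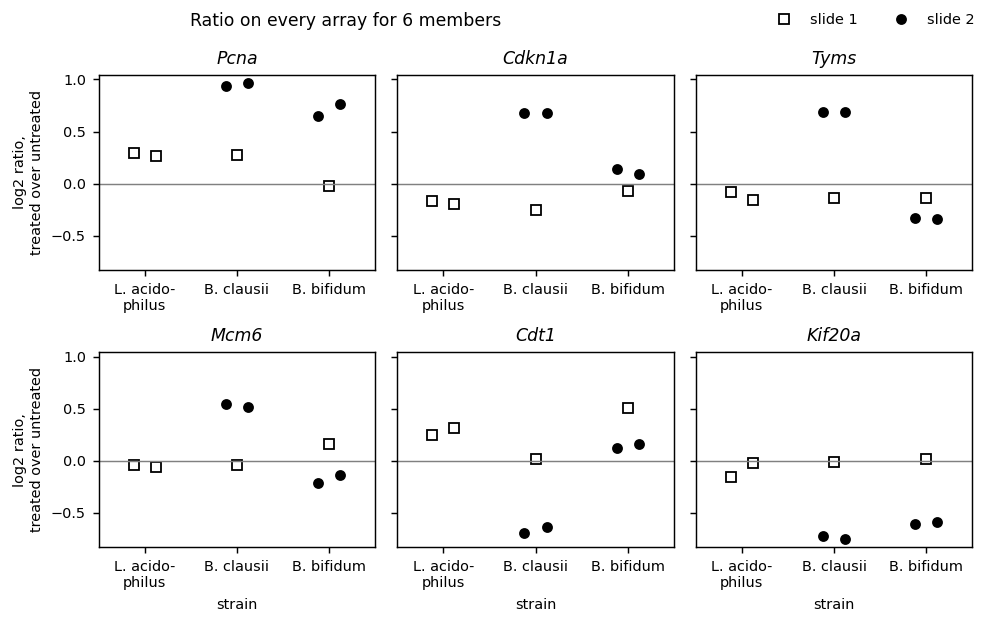
Log2 ratio of treated over untreated cells on every array for Pcna, Cdkn1a, Tyms, Mcm6, Cdt1 and Kif20a, by strain along the horizontal axis, with open squares for arrays of slide 1 and filled circles for arrays of slide 2. The B. clausii arrays of slide 2 stand away from the other arrays for Tyms, Cdkn1a and Mcm6, and the slide 2 arrays of both strains stand away from slide 1 for Pcna and Kif20a.

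The difference between the strains was tested directly, and there a dye or slide effect shared by the arrays cancels. On slide 2, 18 of 40 members differed between B. clausii and B. bifidum, 15 higher and 3 lower with B. clausii. That is 45%, against 29.6% of all genes and 52.6% of genes of like brightness. The higher calls were 15 of 40 members, against 14.9% of all genes and 28.7% of genes of like brightness, and the lower calls 3 of 40, against 14.7% of all genes and 23.9% of genes of like brightness. Without B. bifidum replicate 2 the count was 10. The members' median difference was 0.16, and that of all genes was 0.02.

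Tyms differed most, by 1.02 ± 0.06 (SE, adjusted p = 0.00101), or 2.03-fold. Its 2 arrays were both at 0.69 with B. clausii, and at −0.33 and −0.34 with B. bifidum. Its second probe had means on slide 2 of 0.44 with B. clausii and −0.54 with B. bifidum. Cdt1 differed by −0.80 ± 0.06 (SE, adjusted p = 0.00147), Mcm6 by 0.70 ± 0.06 (SE, adjusted p = 0.00194) and Cdkn1a by 0.56 ± 0.06 (SE, adjusted p = 0.00270). Birc5 differed by 0.58, Bub1 by 0.54, Ccna2 by 0.47, Foxm1 by 0.47, Mybl2 by 0.40 and Nusap1 by −0.45. Both mitotic transcription factors were thus higher with B. clausii, as were 5 replication genes and 6 mitosis genes, while Cdt1, Ung and Nusap1 were lower. All 18 had the same sign under the 4 other scalings, but with the scanner's processed signals, the deposited value table or median centring 0 of the 18 passed, with 13, 15 and 3 members at an unadjusted p under 0.05 by limma. Pcna differed by 0.24 ± 0.07 (SE, adjusted p = 0.0526) and Kif20a by −0.14 ± 0.06 (SE, adjusted p = 0.140), neither called, which does not show that the strains act alike on them.

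Over all arrays, limma called 0 of the 40 members between B. clausii and B. bifidum, against 0.0263% of all genes. By limma 10 members had an unadjusted p under 0.05, as had 1797 of the 15203 genes. Without B. clausii replicate 3 the count was 10, and without B. bifidum replicate 3 it was 2. The share of all genes called under those settings is not given here. Cdt1 differed by −0.70 ± 0.20 (SE, adjusted p = 0.278) and Tyms by 0.68 ± 0.21 (SE, adjusted p = 0.305).

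Arrays of a strain differed between the slides. Over the members, B. bifidum replicate 3 correlated at 0.72 and 0.75 with L. acidophilus, and −0.07 and −0.08 with its strain on slide 2. Over all genes these pairs gave 0.58 and 0.46, and 0.01 and 0.01. B. clausii replicate 3 correlated at 0.36 and 0.52 with L. acidophilus over the members, and 0.16 and 0.17 with its strain on slide 2. Between the 2 strains on slide 2 the members correlated at 0.54 to 0.60. A test of slide 2 against slide 1 within a strain, chosen after seeing the data, called 19 of 40 members with B. clausii, 11 higher and 8 lower on slide 2, against 38.6% of all genes (16% higher and 22.6% lower) and 58.4% of genes of like brightness. With B. bifidum it called 23 of 40, 7 higher and 16 lower, against 29.7% of all genes (12.4% higher and 17.3% lower) and 51.8% of genes of like brightness. The slide 1 side of each test is 1 array, which for B. clausii is the array that stood apart. Mcm2 differed most with B. clausii, at 0.48 and 0.46 on slide 2, against −0.82 on slide 1 (difference 1.29 ± 0.08 SE, adjusted p = 0.000410). Cdkn1a followed with a difference of 0.93. For B. bifidum, Pcna differed by 0.73 and Mcm4 by −0.71, Mcm4 having −0.22 and −0.15 on slide 2, against 0.53 on slide 1. Slide, hybridisation and scan, and any difference between cultures, cannot be told apart.

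Replication genes were set beside mitosis genes on each array. The median of the 14 replication genes minus the median of the 20 mitosis genes was 0.04 and 0.05 with L. acidophilus, 0.10, 0.09 and −0.02 in replicates 1 to 3 of B. clausii, and −0.05, −0.00 and 0.07 in replicates 1 to 3 of B. bifidum. No strain on slide 2 moved the groups apart by more than 0.10, although single members moved by up to 0.96. Within the groups the spread was wide. On the 2 B. clausii arrays of slide 2, the replication genes ran from −0.69 to 0.94 and from −0.64 to 0.96, with interquartile ranges of 0.87 and 0.83, and the mitosis genes from −0.73 to 0.56 and from −0.75 to 0.52, with interquartile ranges of 0.42 and 0.39. With B. bifidum the medians of both groups were below 0 on both slide 2 arrays, at −0.20 and −0.13 for replication and −0.15 and −0.13 for mitosis.

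**Figure D4:**
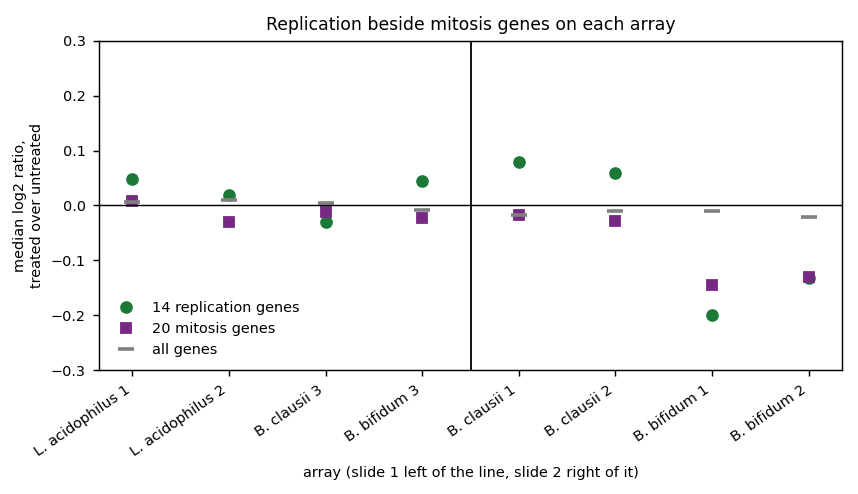
Median log2 ratio of treated over untreated cells on each array for the 14 replication genes (circles), the 20 mitosis genes (squares) and all genes (dashes), slide 1 left of the line and slide 2 right of it. The 2 group medians lie within 0.10 of each other on every array, and both lie between −0.13 and −0.20 on the B. bifidum arrays of slide 2.

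The directions of members that share a promoter word were counted on slide 2. Of 7 members with an E2F-type word, 2 rose with B. clausii (Mcm3 and Mcm6), 4 fell (Cdc6, Cdk1, Cdt1 and Mcm5) and 1 did not pass, and with B. bifidum 1 rose (Mcm3), 5 fell and 1 did not pass. Of 13 members with a CHR word, 3 rose with B. clausii (Bub1b, Cdc20 and Mcm2), 5 fell (Cdc45, Cdk1, Mki67, Plk1 and Top2a) and 5 did not pass, and with B. bifidum 1 rose, 6 fell and 6 did not pass. Among the promoters printed above, Mcm6 with its 3 E2F-type matches rose with B. clausii and fell with B. bifidum, and Cdc6 with 1 match fell with both. With B. clausii, 55.9% of all genes and 74.8% of genes of like brightness were called on these arrays. With B. bifidum it was 38.7% and 63.5%. No test was made of these counts.

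The Cy3 signal of the untreated cells was set side by side for the slides. Its level, balanced across arrays, was called different for 11 of 40 members, or 27.5%, against 27.1% of all genes and 25.4% of genes of like brightness. On slide 1, 5 members were higher and 6 were lower than on slide 2, against 10.6% and 16.5% of all genes. Without B. clausii replicate 3 the count was 20, 11 higher and 9 lower, against 52.2% of all genes. With median centring of Cy3 alone it was 0 by limma, with 3 members at an unadjusted p under 0.05.

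Ccne2 differed most. Its log2 Cy3 levels on slide 1 were 11.14, 11.21, 10.42 and 11.20, against 8.70, 8.91, 8.83 and 9.20 on slide 2 (difference 2.09 ± 0.21 SE, adjusted p = 0.000246), or 4.24-fold higher on slide 1. No array of slide 1 reached down to slide 2. Cdkn1a had 12.86, 12.87, 12.05 and 12.91 on slide 1, against 11.57, 11.63, 11.61 and 11.51 on slide 2 (difference 1.09 ± 0.20 SE, adjusted p = 0.00481). Pcna had 15.27, 15.26, 14.99 and 15.14 on slide 1, against 14.53, 14.55, 14.56 and 14.41 on slide 2 (difference 0.66 ± 0.11 SE, adjusted p = 0.00301). Cdc6 was also higher on slide 1, by 1.06, and Cdc45 by 0.66, and their ratios on slide 2 were below 0 with both strains.

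Lower on slide 1 were Top2a by −1.32, Bub1b by −1.26, Ube2c by −1.24, Ung by −1.06, Mcm2 by −0.73 and Tyms by −0.56. Bub1b had 8.78, 8.96, 8.68 and 8.91 on slide 1, against 9.86, 10.11, 10.00 and 10.40 on slide 2 (difference −1.26 ± 0.14 SE, adjusted p = 0.000452), a gap that no array bridged. For Top2a the value on B. clausii replicate 3 was not well above background. In all, the arrays of the slides did not overlap for 14 of 40 members, 8 with slide 1 above and 6 below, or 35%, against 36.7% of all genes. Slide, hybridisation, scan setting (an extended range was used for slide 1 alone) and untreated culture cannot be told apart.

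**Figure D5:**
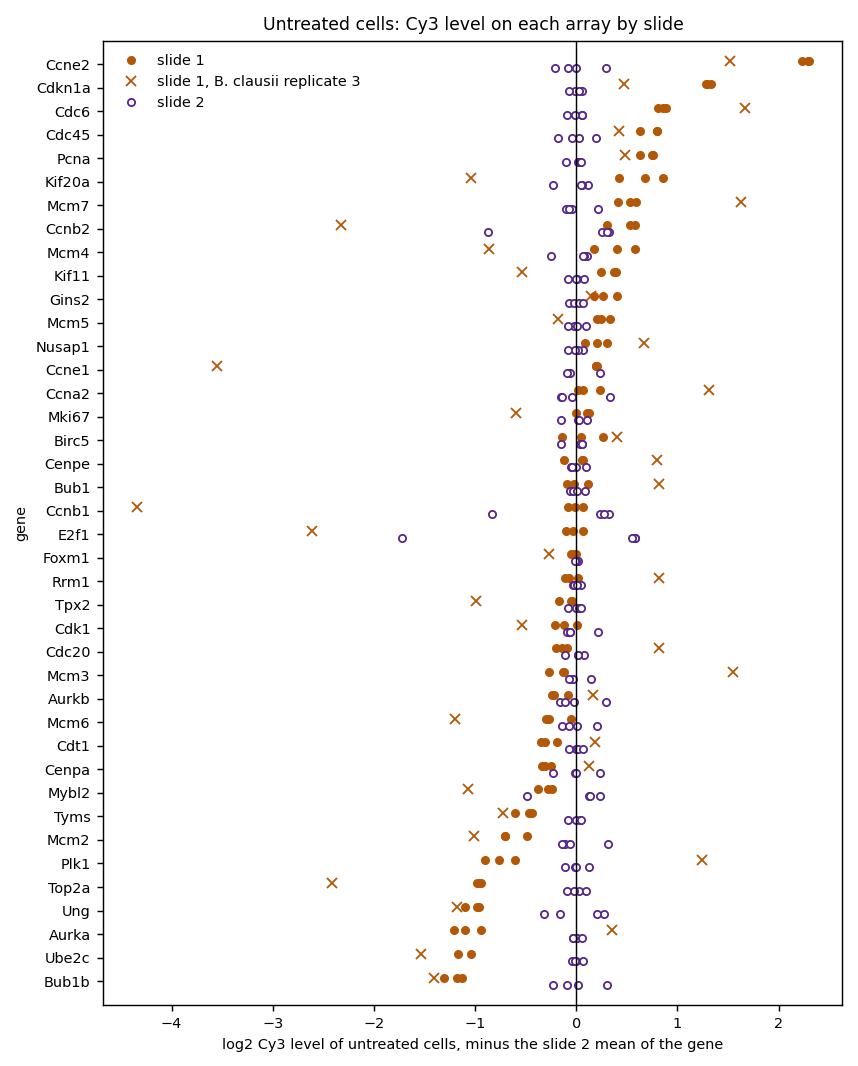
Log2 Cy3 level of untreated cells on every array for the 40 measured members, as the difference from the member's mean on slide 2, with filled points for slide 1, crosses for B. clausii replicate 3 on slide 1 and open points for slide 2; members are ordered by the slide 1 mean without that array. Ccne2 and Cdkn1a lie highest on slide 1 and Bub1b lowest, and the crosses of Ccnb1, Ccne1 and Ccnb2 lie far below the other points.

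Genes of the same pathways outside the list were counted in the same fits. On slide 2, 55.9% of all genes were called with B. clausii and 38.7% with B. bifidum. Of 46 other replication genes, 15 rose and 16 fell with B. clausii on slide 2, and 5 rose and 22 fell with B. bifidum. Rfc1, a subunit of the loader of the Pcna clamp, averaged −0.96 with B. bifidum on slide 2. Of 46 other mitosis genes, 11 rose and 19 fell with B. clausii, and 6 rose and 22 fell with B. bifidum. Cdc25b, a phosphatase that activates cyclin-dependent kinases, averaged −0.85 with B. clausii and −1.02 with B. bifidum, both called.

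Among 28 genes of the kinase, Rb and E2F network, 7 rose and 7 fell with B. clausii and 2 rose and 6 fell with B. bifidum on slide 2. Of all genes, 25.7% were called higher and 30.3% lower with B. clausii there, and 15.1% and 23.6% with B. bifidum. E2f2 rose by 0.69 with B. clausii, and the repressor gene E2f6 fell by 0.77 with B. clausii and by 0.66 with B. bifidum. Of 17 genes known as targets of p53, the factor best known for switching on Cdkn1a, 3 rose and 9 fell with B. clausii on slide 2, and 4 rose and 7 fell with B. bifidum. Trp53inp1 averaged −1.30 with B. clausii and differed by −1.58 between the strains, while Cdkn1a rose. Other targets went up with B. clausii on slide 2, with Fas at 0.57 and 0.58 and Bbc3 at 0.51 and 0.49. In the untreated cells, 7 of these 17 were called higher on slide 1 and 4 lower, where 27.1% of all genes were called, with Fas higher by 3.24 and Gadd45a by 2.66, and cyclin D2 (Ccnd2) was higher by 3.75.

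Several probes were present for 12 of the 40 members. Among probes that passed the filter, the slide 2 means differed in sign with at least 1 strain for Bub1 and E2f1, described above, for Cdc6, for Ccnb1, whose other probes averaged −0.19 and 0.04 with B. clausii, for Cdk1, whose dim probe averaged 0.11, and for Cenpe, a kinesin of the kinetochore, whose bright probe averaged 0.06 and whose dim probes averaged −0.66 and −0.65. For Tyms, Mki67, Ccne1, Ccne2 and Top2a the probes had the same sign on both B. clausii arrays of slide 2. Cdc6 had a dimmer probe at −0.32 and −0.32 on slide 2 with B. clausii, against 0.09 on slide 1. With B. bifidum on slide 2 that probe had 0.00 and 0.09.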

How the data were processed

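Spot and background signals are linear intensity in the deposited scanner files, written by Feature Extraction 10.7.3.1 per the file headers, where the submitters' processing notes give Agilent Feature Extraction 10.5.1.1. The software's processed intensity and its log10 value of Cy5 over Cy3 are in the same deposited files. The authors' deposited value table equalled that log10 value to within 0.005 on every array, with a median of 0, so its scale and direction are known.

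From the deposited median signals, limma 3.58.1 in R 4.3.3 corrected the background with normexp (offset 50; the planned mean signal was not among the columns used) and computed log2 ratios with loess within each array, control spots at weight 0, outlier spots left out and saturated spots kept. Repeated spots were averaged by probe. The filter kept 28598 of 41174 probes, those well above background on 2 or more arrays in either channel. Names come from transcript accessions matched without versions to the RefSeq table of GRCm38.p6, which named 29169 of 43379 probe features and left 14210 without a name. The files name another build, so coordinates are given only for RefSeq promoters. A gene was represented by its brightest probe. Strain means over all 8 arrays, and over slide 2 alone, were tested against 0 and against each other with lmFit and eBayes, and log2 Cy3 levels (Aquantile between arrays) between slides. P-values were adjusted by Benjamini-Hochberg over 15203 genes, with a threshold of 0.05. Since untreated RNA is on every array, the tests leave out the spread of untreated cells. Only the fits of strain means were run on simulated data, as log2 ratios with known changes. Background correction, loess, the choice of probes and the Cy3 comparison between slides were not covered by that simulation.

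Slides come from the file headers. Replicate numbers of B. clausii and B. bifidum pair by the rule used: deviations from the strain means correlated at 0.41, 0.30 and 0.46 for equal numbers, but within slide 2 also at 0.37 and 0.26 for unequal ones, so number and slide cannot be told apart. Numbers of L. acidophilus did not pair with B. clausii (−0.08 and −0.09).

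The members and lists, and the fits within slide 2, were chosen with earlier results of these data known. Members given in full are those called in a comparison, up to 8 by smallest adjusted p, the highest and lowest of each group, Cdkn1a and Pcna; other lists name up to 3. Ratios are on the log2 scale of treated over untreated unless stated, differences between strains or slides are log2 differences, and folds are on the linear scale. The number of arrays limits the precision.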

Additional observations from a re-analysis of the deposited data

Results flagged for a closer look

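The untreated Cy3 levels of the members were examined for single arrays far from the other 3 of their slide, by Dixon's criterion for groups of 4. Of 79 groups, 27 held such an array, where chance gives about 1 in 20 for a single group. In 17 the array was B. clausii replicate 3 on slide 1, and in 10 it was B. bifidum replicate 2 on slide 2. The groups share these arrays and the share among all genes was not counted, so nothing particular to the members is concluded. Over all genes, the Cy3 of B. clausii replicate 3 correlated at 0.903 to 0.910 with the other slide 1 arrays. Those arrays correlated at 0.996 to 0.997 with each other. On B. clausii replicate 3 the log2 distance from the median of the other 3 arrays was −4.33 for Ccnb1, −3.75 for Ccne1, −2.86 for Ccnb2, −2.58 for E2f1, −1.47 for Top2a, −0.94 for Tpx2, −0.90 for Kif11, −0.82 for Cdkn1a, −0.80 for Mybl2 and −0.78 for Ccne2. It was 2.01 for Plk1, 1.68 for Mcm3, 1.25 for Ccna2, 1.09 for Mcm7, 0.96 for Cdc20, 0.89 for Rrm1 and 0.81 for Cdc6. B. bifidum replicate 2 lay at −2.30 for E2f1, −1.18 for Ccnb2, −1.11 for Ccnb1, −0.62 for Mybl2, −0.33 for Mcm4, −0.21 for Birc5 and −0.14 for Pcna. It lay at 0.42 for Mcm2, 0.31 for Ccne1 and 0.28 for Cdk1. E2f1, Ccnb1, Ccnb2 and Mybl2 were thus low on both of these arrays, which had the smallest shares of genes well above background, 53.9% and 79.5%. What part array quality had in these values was not tested.

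On slide 2 the effects of B. clausii and B. bifidum differed for 18 of 40 members, or 45%, by limma's test of the difference. Of all genes 29.6% were called there, and of genes of like brightness 52.6%, so the count shows nothing particular to the members. These calls were lost with the scanner's processed signals, the deposited value table or median centring. The log2 difference was 1.02 for Tyms, 0.70 for Mcm6, 0.58 for Birc5, 0.56 for Cdkn1a, 0.54 for Bub1, 0.47 for Ccna2, 0.47 for Foxm1, 0.40 for Mybl2, 0.39 for Ccnb1, 0.36 for Mcm2, 0.36 for Bub1b, 0.36 for Gins2, 0.34 for Aurkb, 0.32 for Ccne2 and 0.32 for Rrm1. It was −0.80 for Cdt1, −0.45 for Nusap1 and −0.34 for Ung. Tyms and Mcm6 rose with B. clausii and fell with B. bifidum. Each strain had 2 arrays there, and a dimmer probe of Bub1 and 2 dimmer probes of Ccnb1 did not follow their bright ones.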

How the results depend on the processing

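Counts of called members moved with the processing, and the cause was not tested. Shares of all genes called are not given for these settings, so the counts describe the processing and not the members. With B. clausii over all arrays (5), the count was 1 without background correction, 3 without a filter on dim probes, 2 with the mean of a gene's probes, and 0 with processed signals, the deposited value table, median centring, an intensity trend, slide 1 alone or only the strains compared, where 8, 13, 15, 21, 11 and 14 members had an unadjusted p under 0.05 by limma. With the replicate number as a block it was 18 for B. clausii, 11 for B. bifidum and 1 for L. acidophilus, and with the slide as a block 17, 7 and 2, and 2 between B. clausii and B. bifidum; the replicate block left the other counts within 1.5 times (28, 24 and 18 on slide 2, 0 between the strains over all arrays). On slide 2, B. clausii (28) had 18 with processed signals, 14 with the deposited table and 14 with median centring, and B. bifidum (25) had 10 with processed signals and 5 with the deposited table. The difference between them (18) had 0 with each of these 3 and 28 of 36 with a strict filter on dim probes. The Cy3 comparison (11) had 0 with median centring alone, where 3 members reached an unadjusted p under 0.05. Leaving out each array in turn gave 0 to 0 for L. acidophilus, 0 to 22 for B. clausii, 0 to 10 for B. bifidum and 0 to 10 between the strains over all arrays, 10 to 20 for Cy3, and 24 to 28, 14 to 25 and 10 to 18 on slide 2. There, B. bifidum had 14 without its replicate 1 and 15 without its replicate 2, and the difference had 10 without B. bifidum replicate 2. The lone array left in a strain is assumed to vary like the others.

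The strain mean of replication minus mitosis medians was −0.0025 with the deposited table, 0.0884 with median centring and 0.0676 with the mean of probes for L. acidophilus, 0.13 with the deposited table for B. clausii, and 0.12 with median centring for B. bifidum. Single values were followed only for called members, up to 8 per comparison by smallest adjusted p. Of these 443 values, 349 stayed on their side of the threshold, 86 lost the call and 8 turned. With median centring these were Ccnb1 (−0.14) and Bub1b (−0.18) over all arrays of B. clausii, and Cdkn1a (−0.0081), Ccne1 (−0.14) and Birc5 (−0.10) on its slide 2. Pcna (−0.29) and Cdc20 (−0.54) turned with B. bifidum on slide 2. With a strict filter, which leaves another probe, Ccnb1 (−0.13) turned over all arrays of B. clausii. Members outside that selection turned as well. Of all called rises on slide 2, 3 of 15 with B. clausii and 0 of 5 with B. bifidum stayed above 0 under all 4 other scalings, without allowing for the shift of all genes.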
